A study of Mus musculus with 12 samples.

Results

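The genes of the cytosolic ribosomal proteins were examined in bulk RNA libraries of mouse lung fibroblasts. They were taken from the deposited table by symbol, as the genes named Rpl or Rps with a number and at most 1 of the suffixes a, l or x, together with Rpsa, Rplp0, Rplp1 and Rplp2. This gave 81 of 20606 genes, 50 of the large ribosomal subunit and 31 of the small one. The study profiled 2 purified fibroblast subgroups, taken from lungs with or without metastasis, in a series on breast cancer metastasis and on matrix fibroblasts that express the tryptophan-degrading enzyme Tdo2. N-MF and M-MF are the matrix fibroblasts of normal mice and of mice with metastasis, N-MyoF and M-MyoF are the subgroup that the design text abbreviates MyoF, and each group held 3 libraries. The sources used here do not give strain, age, the tumour cells or the way the cells were purified. The labels do not tie the 3 libraries of a group to separate animals. The p-values below therefore speak of the variation among libraries alone, and that variation may be technical.

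Ribosomal proteins are made in the cytoplasm, carried into the nucleolus, built onto ribosomal RNA there, and exported as parts of the large and small subunits. Most mammalian ribosomal proteins are encoded by 1 expressed gene each, and the products are needed in equal numbers, so their messenger RNAs are abundant and usually move together. These messenger RNAs begin with a C followed by a run of pyrimidines, the terminal oligopyrimidine (TOP) motif, through which their translation is coupled to growth signalling by mTOR and Larp1. Fibroblasts secrete the collagens and proteoglycans of the lung matrix, and such secretion draws on the same ribosomes as growth does.

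The start regions of the members at the ends of the range of change are shown first, since the family rose with metastasis and these 6 genes rose the most or the least. RefSeq start regions (GRCm38.p6) were at hand for 61 of the 81 genes, in 73 windows that reach from 250 bases before to 50 bases after a start. In the lines below, 70 bases before and 20 bases after a RefSeq start are given 5′ to 3′ on the gene's strand. Where a gene had several starts, the first listed was taken. For Rps2 and Rpl22 the start shown lies inside the gene, whose RefSeq span begins at chr17:24718121 and chr4:152324436. Capitals mark a C followed by at least 5 pyrimidines that begins between 40 bases before and 30 bases after the start shown. The capital CC that ends the Rps27 line begins such a run, which continues past the printed stretch. Rpl12, Rpl39 and Rplp0 had the highest metastasis changes in MF, and Rps27, Rps2 and Rpl22 the lowest.
Rpl12, chr2:32961642-32961731, plus strand: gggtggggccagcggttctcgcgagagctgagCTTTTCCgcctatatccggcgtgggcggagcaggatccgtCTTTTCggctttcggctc
Rpl39, chrX:37085203-37085292, minus strand: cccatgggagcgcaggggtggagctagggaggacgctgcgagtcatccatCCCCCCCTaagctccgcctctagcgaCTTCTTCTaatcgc
Rplp0, chr5:115559397-115559486, plus strand: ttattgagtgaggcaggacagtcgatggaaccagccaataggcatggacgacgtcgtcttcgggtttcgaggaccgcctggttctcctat
Rps27, chr3:90213629-90213718, minus strand: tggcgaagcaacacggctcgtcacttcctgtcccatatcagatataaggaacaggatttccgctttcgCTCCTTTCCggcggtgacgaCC
Rps2, chr17:24719993-24720082, plus strand: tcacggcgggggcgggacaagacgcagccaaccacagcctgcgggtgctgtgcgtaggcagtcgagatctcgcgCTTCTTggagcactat
Rpl22, chr4:152325656-152325745, plus strand: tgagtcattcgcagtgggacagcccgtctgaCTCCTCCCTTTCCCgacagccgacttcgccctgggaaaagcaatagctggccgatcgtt
Such a run stood in 5 of these 6 stretches, on both ends of the range, and the Rplp0 stretch held none, which says only that these letters are not in that window.

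A pyrimidine run of this kind on the sense strand stood near the start in 76.7% of the members' 73 windows and in 45.4% of all 32851 windows. On either strand the shares were 84.9% and 76.9%. The shorter string CTTTC, which some of these runs contain, stood on the sense strand in 34.2% of the members' windows and 9.2% of all, and on either strand in 41.1% and 17.1%. CCGGAAG, the core of sites bound by ETS family factors, was found on either strand within the 300 bases of 35.6% of the members' windows and 8.9% of all. These matches describe the letters only.

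Values are FPKM as deposited, a level per length of transcript and per mapped fragment, so levels can be set side by side between genes. The read depth is not known. In 421 genes with few nonzero values, taken as single reads, the value per library was between 0.969 and 1.05 of the typical value. These genes were kept only where their nonzero values were close to each other. The range therefore cannot show whether the libraries differed in depth. The deposited values summed to between 528176 and 618478 per library. All 7 fibroblast markers (collagens, Dcn, Lum and the platelet-derived growth factor receptors) were above 1 FPKM in at least 1 library of each group. Their summed level ran from 21040 to 21270 FPKM in N-MF, 15270 to 15400 in M-MF, 3584 to 3640 in N-MyoF and 2065 to 2088 in M-MyoF. The 10 neutrophil markers summed to 33.2 to 38.0 FPKM in N-MF, 251 to 260.4 in M-MF, 140.5 to 154 in N-MyoF and 13230 to 13580 in M-MyoF. The 8 epithelial markers summed to 2255 to 2306, 3026 to 3048, 18760 to 19260 and 15870 to 16390 FPKM in the same order, and the 4 globin genes to 53.5 to 61.3, 10.02 to 16.7, 6814 to 6963 and 3375 to 3448. The 6 mesothelial markers summed to 6.72 to 7.03 FPKM in N-MF, 241.2 to 245.8 in M-MF, 81.8 to 82.6 in N-MyoF and 206 to 213 in M-MyoF. In bulk RNA a change in the mix of cells and a change of RNA per cell cannot be told apart.

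Most ribosomal protein genes were among the abundant messages. Of the 81 genes, 69 reached a mean of 100 FPKM over all libraries, 25 reached 500, and 32 stood among the 200 most abundant genes of the table. The 5 most abundant were Rpl41 (1404 FPKM), which encodes the smallest ribosomal protein, Rpl13 (1343), Rps27 (1143), Rplp0 (1111) and Rpl10 (1037). Together the members held 4.69 ± 0.0527% of the summed FPKM in N-MF, 6.85 ± 0.0361% in M-MF, 4.19 ± 0.0208% in N-MyoF and 6.997 ± 0.0425% in M-MyoF (SD, n = 3). The libraries of a group were close, with a median coefficient of variation of a member between 2.29% and 2.83% within groups. A gene was tested where at least 3 libraries had 1 FPKM or more, which 78 members passed.

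In matrix fibroblasts the ribosomal protein genes were higher with metastasis. Of the 78 tested members, 77 were higher in M-MF than in N-MF at an adjusted p under 0.05 and 0 were lower, where 46.3% of all 13300 genes tested were higher and 31.8% lower. The members' median log2 change was 0.65, or 1.57-fold, and that of all genes 0.08. The change ran from 0.28 for Rpl22 to 1.201 for Rpl12, and the middle of the family lay between 0.52 and 0.81, the quartiles. At 1.5-fold or more, 45 members were higher, against 18.8% of all genes. The M-MF libraries all lay above the N-MF libraries for 77 members, against 47.1% of all genes. Both subunits took part, with 46 of 47 large-subunit genes higher at a median of 0.59 and 31 of 31 small-subunit genes at a median of 0.67. The exception was Rpl30, with 153, 148 and 215 FPKM in the N-MF libraries and 196, 197 and 288 FPKM in the M-MF libraries, a log2 change of 0.39 (SE 0.196, limma adjusted p = 0.0824). Rpl30 passed with the library number as a block (adjusted p = 1.22e-08). In the same libraries 6 of 6 mesothelial markers were higher in M-MF, with a median log2 change of 4.12, as were 8 of 10 neutrophil markers (median 2.26), and their part in the ribosomal protein changes was not tested.

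The 3 largest changes in MF belonged to Rpl12, Rpl39 and Rplp0. Rpl12, a protein at the base of the stalk that binds elongation factors, had 133, 144 and 135 FPKM in the N-MF libraries and 323, 309 and 319 FPKM in the M-MF libraries. The lowest M-MF library was at more than double the highest N-MF library, a log2 change of 1.201 (SE 0.0351, limma adjusted p = 4.41e-12). Rpl39, a small protein that lines the exit tunnel for the new chain, had 118, 119 and 121 FPKM in the N-MF libraries and 265, 267 and 272 FPKM in the M-MF libraries, and changed by 1.16 (SE 0.0659, adjusted p = 3.53e-09). Rplp0, the core of the stalk, had 712, 722 and 681 FPKM in the N-MF libraries and 1569, 1571 and 1509 FPKM in the M-MF libraries, 2.20-fold higher with metastasis. At the other end, Rps27, a zinc-binding protein of the small subunit, had 1069, 996 and 1077 FPKM in the N-MF libraries and 1374, 1275 and 1357 FPKM in the M-MF libraries. Its groups did not overlap, and its change was 0.35 (SE 0.0393, adjusted p = 3.19e-06). Rps2, at the entry of the messenger RNA channel, had 602, 603 and 595 FPKM in the N-MF libraries and 769, 766 and 751 FPKM in the M-MF libraries, a change of 0.34. Rpl22, which in lymphocytes is known for roles outside the ribosome, had 27.8, 29.1 and 29.5 FPKM in the N-MF libraries and 34.7, 34.5 and 36.04 FPKM in the M-MF libraries, a change of 0.28 (SE 0.0336). After quantile normalization the Rpl22 change was 0.030 and did not pass (adjusted p = 0.447).

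**Figure D1:**
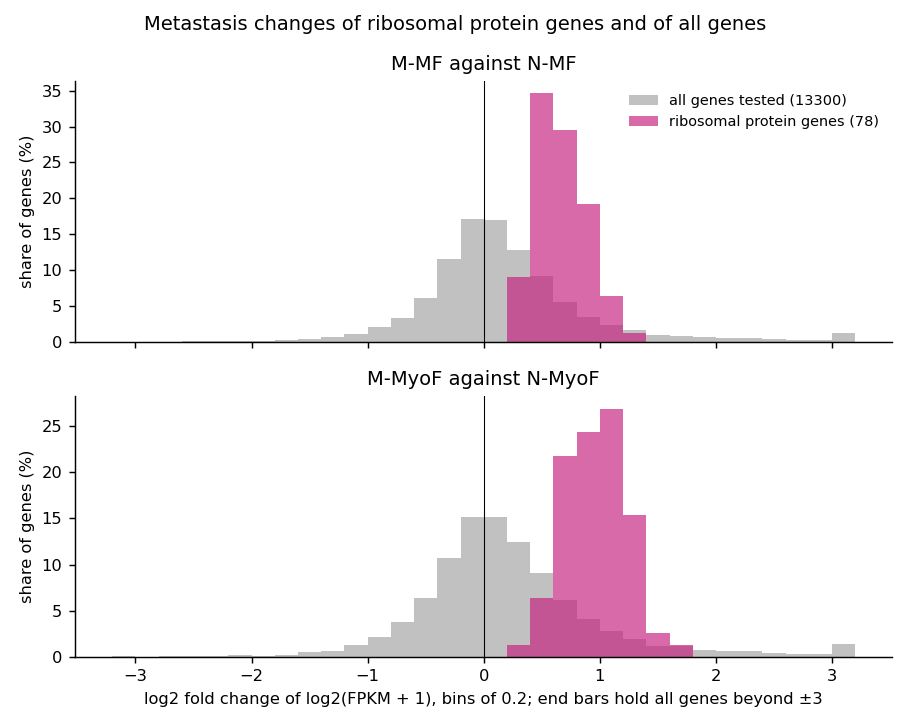
Histogram of log2 fold changes of log2(FPKM + 1) with metastasis in MF (upper panel) and MyoF (lower panel), as the share of genes per bin, for the 13300 genes tested (grey) and the 78 tested ribosomal protein genes (pink). All pink bars lie to the right of 0, with medians of 0.65 and 0.96, while the grey bars centre near 0.

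In the MyoF subgroup the rise was larger. All 78 tested members were higher in M-MyoF than in N-MyoF, where 49.1% of all genes tested were higher and 31.6% lower. The median log2 change was 0.96, or 1.95-fold, and that of all genes 0.11. The range ran from 0.25 for Rps27 to 1.77 for Rpl12. At 1.5-fold or more, 74 members were higher, against 22.2% of all genes, and the libraries of the groups did not overlap for 78 members, against 49.9%. The large-subunit genes had a median of 0.9999 (47 of 47 higher) and the small-subunit genes 0.94 (31 of 31). Rpl12 had 114, 117 and 108 FPKM in the N-MyoF libraries and 395, 378 and 385 FPKM in the M-MyoF libraries, 3.40-fold higher (1.77, SE 0.0351, adjusted p = 9.61e-14). Rpl39 had 84.8, 99.4 and 78.3 FPKM in the N-MyoF libraries and 258, 279.99 and 252 FPKM in the M-MyoF libraries, 2.995-fold higher, and its N-MyoF libraries spread more than its M-MyoF libraries did in proportion. Rps26, a protein near the exit of the messenger RNA channel, had 301, 304 and 296 FPKM in the N-MyoF libraries and 804, 829 and 851 FPKM in the M-MyoF libraries, a change of 1.46 (SE 0.0249).

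The smallest changes in MyoF were those of Rps27, Rpl22 and Rpl21. Rps27 had 1047, 956 and 998 FPKM in the N-MyoF libraries and 1180, 1161 and 1220 FPKM in the M-MyoF libraries, only 1.19-fold higher (0.25, SE 0.0393, adjusted p = 7.36e-05). It did not pass with each library set to an equal sum (0.055, adjusted p = 0.229) or after median-ratio scaling (0.085, adjusted p = 0.055), so the rise of Rps27 in MyoF depends on the scaling. Rpl22 had 26.9, 26.2 and 26.6 FPKM in the N-MyoF libraries and 39.9, 36.5 and 38.2 FPKM in the M-MyoF libraries, a change of 0.51, and Rpl21 had 92.4, 99.97 and 102 FPKM in the N-MyoF libraries and 134, 139 and 148 FPKM in the M-MyoF libraries, a change of 0.51. The groups did not overlap for any of these genes. Rpl41, the most abundant member, had 858, 914 and 860.2 FPKM in the N-MyoF libraries and 1984, 2099 and 1972 FPKM in the M-MyoF libraries. In these libraries the neutrophil markers had risen for 10 of 10 genes, to the sums given above, and the proliferation list (Top2a, Cdk1, Birc5 and others) for 12 of 12, with a median log2 change of 3.58. The mesothelial markers were higher for 6 of 6 in MyoF, with a median of 1.57. Proliferation genes were also higher for 12 of 12 in MF, with a median of 2.90. The part of these in the ribosomal protein changes was not tested.

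**Figure D2:**
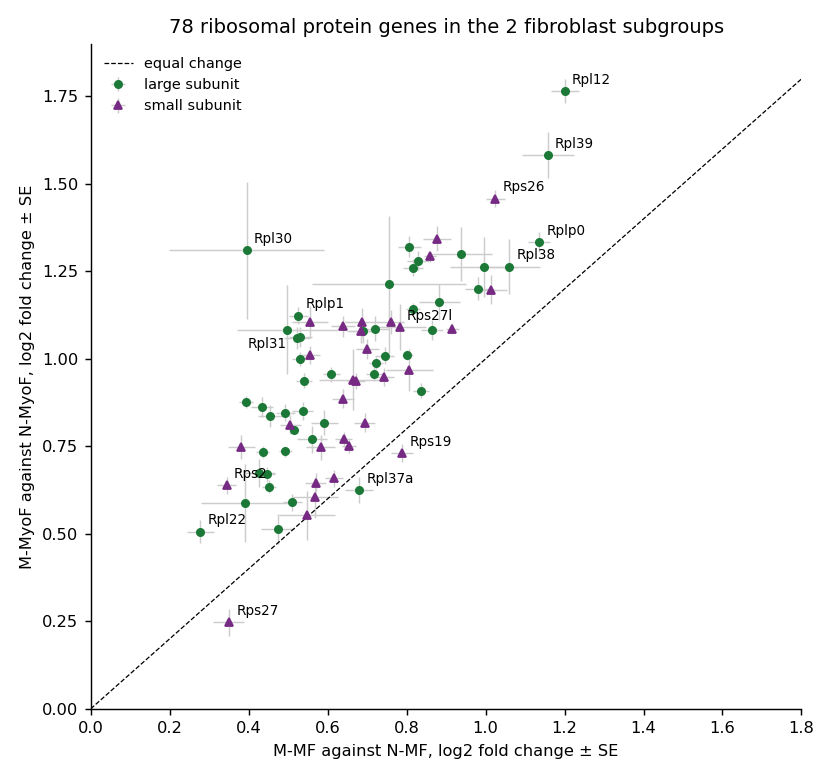
Log2 fold change of each of the 78 tested ribosomal protein genes in MF (horizontal) and MyoF (vertical) with its SE, circles for the large and triangles for the small subunit, and a dashed line of equal change. The genes lie above the line except Rps27, Rps19 and Rpl37a, and Rpl12 is the farthest from the origin.

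The change with metastasis differed between the subgroups for most members. The difference of the log2 changes (MF minus MyoF) was negative for 75 of 78 members, and 63 passed as smaller in MF with 0 passing as larger, where 38% of all genes were smaller and 26.4% larger. The median difference was -0.28, against -0.06 for all genes. With the library number as a block, 71 members were smaller and 2, Rps27 and Rpl37a, were larger in MF. Of all genes, 39.3% were smaller and 27.3% larger in that fit. At 1.5-fold or more only Rpl30 and Rplp1 remained, against 9.14% of all genes. Rpl30 differed by -0.92 (SE 0.277, adjusted p = 0.0116), with 115, 109.6 and 155 FPKM in the N-MyoF libraries and 286, 271 and 389.9 FPKM in the M-MyoF libraries. Rplp1, an acidic protein of the stalk, differed by -0.60 (SE 0.0341, adjusted p = 1.14e-08). It had 735, 731 and 767 FPKM in the N-MF libraries and 1056, 1061 and 1099 FPKM in the M-MF libraries, and 484, 474 and 477 FPKM in the N-MyoF libraries and 1066, 1012 and 1052 FPKM in the M-MyoF libraries. As deposited, the subgroups thus stood apart in normal mice and overlapped in mice with metastasis. As a ratio to the members' median of the same library, Rplp1 did not overlap there: 2.63, 2.64 and 2.68 in M-MF and 2.40, 2.26 and 2.36 in M-MyoF. Rpl31, of the exit tunnel region, differed by -0.58 (SE 0.180, adjusted p = 0.013), with a wide spread within each group. Both Rpl30 and Rpl31 also passed with the library number as a block (limma adjusted p = 6.78e-10 and 3.05e-06). At the other end stood Rps27 (0.10), Rps19 (0.06) and Rpl37a (0.05), none of which passed as deposited. Rps27 and Rps19 did pass, as larger in MF, under equal sums (0.18 and 0.14), and Rps19 also without N-MF library 3 (adjusted p = 0.0277). Rps27 passed without M-MF library 2 (adjusted p = 0.0463) or N-MyoF library 2 (adjusted p = 0.0479). Rps19, whose human counterpart is mutated in Diamond-Blackfan anaemia, had 637, 611 and 665 FPKM in the N-MF libraries and 1111, 1086 and 1107 FPKM in the M-MF libraries, and 664, 643 and 653 FPKM in the N-MyoF libraries and 1094, 1101 and 1060 FPKM in the M-MyoF libraries, rises of 0.79 and 0.73.

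The family's rise was measured again after rescaling, since the deposited sums differ between libraries. With each library set to an equal sum, the median member change was 0.53 in MF and 0.77 in MyoF. With the sums of the other genes made equal it was 0.57 and 0.82, with median-ratio scaling 0.51 and 0.80, and with quantile normalization 0.41 and 0.73. Under these 4 scalings between 74 and 77 members were higher in MF and 77 or 78 in MyoF, and 0 were lower. Of all genes tested, 33.3% to 41.4% were higher in MF and 34.5% to 40.2% in MyoF under the same scalings. The rescalings moved the median of all genes too, from 0.08 to between -0.09 and 0.02 in MF and from 0.11 to between -0.10 and -0.02 in MyoF. Against that median the members stood 0.57 higher in MF as deposited and 0.50 to 0.55 higher after rescaling. In MyoF they stood 0.86 higher as deposited and 0.83 to 0.84 after rescaling. Of all genes called in MF, 59.3% were higher as deposited and 41.4% to 52.4% after rescaling, and in MyoF 60.8% and 41.7% to 49.1%. The median difference between the subgroups was -0.20, -0.21, -0.26 and -0.26 in the order above.

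**Figure D3:**
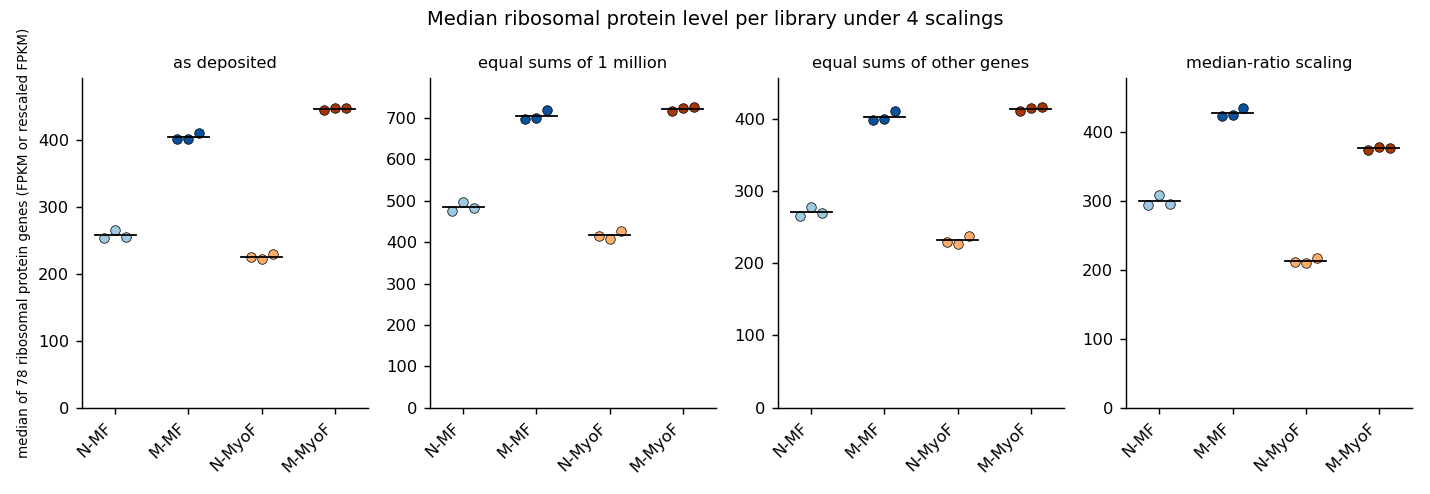
Median level of the 78 tested ribosomal protein genes in each of the 12 libraries (points) and its group mean (lines), as deposited and under 3 rescalings, each panel on its own axis from 0. M-MF stands above N-MF and M-MyoF above N-MyoF in every panel, whereas M-MyoF stands above M-MF in 3 panels and below it after median-ratio scaling.

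Between the subgroups of normal mice the members leaned to MF. The median member level was 258 ± 6.31 FPKM in N-MF and 225 ± 4.42 in N-MyoF (SD, n = 3). In N-MF, 49 members were higher than in N-MyoF and 4 were lower, where 24.5% of all genes were higher and 57.6% lower. The median log2 difference was 0.17, and that of all genes -0.21. With the library number as a block, 61 were higher and 7 lower, where 25.1% of all genes were higher and 58.3% lower. Rplp1 (0.64, SE 0.0241), Rps12 (0.62, SE 0.0462) and Rps20 (0.56, SE 0.0410) differed the most. Rps12 had 146, 134 and 151 FPKM in N-MF and 92.5, 99.2 and 88.2 FPKM in N-MyoF, and Rps20 had 28.9, 30.4 and 30.4 and 20.1, 20.1 and 19.9 FPKM, with no overlap. The members that were lower in N-MF were Rps6 (-0.21), Rps2 (-0.13), Rpl18 (-0.11) and Rps14 (-0.07). After median-ratio scaling 77 members were higher in N-MF and 0 lower, where 43.3% of all genes were higher and 37.2% lower. The members' median was then 0.46 against 0.03 for all genes, so the direction of those 4 turned with the scaling. Rpl18 also did not pass without N-MF library 1 or 3 or N-MyoF library 1 or 2 (adjusted p between 0.0584 and 0.106). All 7 myofibroblast markers, 7 of 7 tested epithelial markers and the 2 tested globin genes were lower in N-MF, and their part was not tested.

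In mice with metastasis the order of the subgroups depended on the scaling. As deposited, the median member level was 404 ± 5.2 FPKM in M-MF and 446 ± 1.89 in M-MyoF (SD, n = 3), 8 members were higher in M-MF and 48 lower, and the median log2 difference was -0.13. Of all genes, 19.1% were higher and 66% lower with a median of -0.29, so the members stood 0.16 above that median. With the library number as a block, 9 members were higher and 56 lower, where 19.5% of all genes were higher and 66.7% lower. After median-ratio scaling the medians were 428 and 376, 58 members were higher in M-MF and 2 lower, and the median difference was 0.19 against -0.01 for all genes. Of all genes, 37.9% were higher and 39.8% lower under that scaling. With equal sums 21 members of 79 tested were higher and 33 lower, where 23.1% of all genes were higher and 57.2% lower, so the share higher lay near that of all genes. With quantile normalization 14 were higher and 45 lower, where 35.7% of all genes were higher and 40.7% lower, and the members' median stood 0.08 below that of all genes. The members highest in M-MF were Rps29 (0.37), Rps28 (0.36) and Rpl37a (0.33), small proteins with short coding sequences. Rps29 had 278, 297 and 300.4 FPKM in M-MF and 204, 235 and 241 FPKM in M-MyoF, Rps28 had 303, 299.5 and 286 and 242, 222 and 228, and Rpl37a had 406, 429 and 432 and 324, 338 and 343. These libraries did not overlap. Rps15a (0.15), Rps18 (0.08), Rpl15 (0.04), Rps27 (0.17) and Rps20 (0.14) were also higher in M-MF. Of these, Rps15a did not pass without M-MF library 2 or 3 or M-MyoF library 1 or 2 (adjusted p between 0.0666 and 0.137). Rpl15 did not pass in most fits that left out a library (up to 0.153). Both passed in the fit with the library number as a block (limma adjusted p = 0.000398 for Rps15a and 0.0161 for Rpl15). The lowest were Rpl30 (-0.48, SE 0.196), Rps2 (-0.43, SE 0.0234) and Rpl19 (-0.41, SE 0.0341). Rpl30 no longer passed under equal sums (adjusted p = 0.104) or without M-MyoF library 3 (-0.32, adjusted p = 0.158). Without M-MF library 1 or 2 its adjusted p was 0.123 and 0.12. Rpl30 passed with the library number as a block (-0.48, SE 0.0207, limma adjusted p = 2.22e-09). These contrasts share libraries with the metastasis contrasts, so their values are not separate evidence.

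Members did not all rise by the same factor. To compare them with each other, each library was scaled so that the members' median was level, which places about as many members above as below by construction. This scaling was added after the data were seen. Relative to the family, 26 members were higher and 27 lower in M-MF than in N-MF, where 15.8% of all genes were higher and 72.6% lower, and 33 were higher and 30 lower in M-MyoF than in N-MyoF (12.3% and 81.4% of all genes). The metastasis changes of the members in MF and MyoF, which share no library, had a Spearman correlation of 0.72 and a Pearson correlation of 0.77 over 78 genes. In both subgroups 21 members rose above the family and 20 stayed below it, at an adjusted p under 0.05. No share of all genes was taken beside these counts, and the near-even split follows from the scaling. The side differed between the subgroups for 6, named here after their values were seen. Rpl10, Rpl11, Rpl28, Rplp1 and Rps12 were below the family in MF and above it in MyoF, and Rps19 was above it in MF and below it in MyoF.

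Rpl12, Rpl39 and Rplp0 gained on the family in both subgroups. These 3, and Rps27, Rps2 and Rpl22 below, were picked by their changes in MF, so their side in MF follows from that choice. The Rpl12 level, as a ratio to the members' median of the same library, was 0.533 ± 0.0101 in N-MF and 0.783 ± 0.0190 in M-MF, and 0.502 ± 0.0304 in N-MyoF and 0.867 ± 0.0227 in M-MyoF (SD, n = 3). Its log2 change relative to the family was 0.54 in MF and 0.83 in MyoF, that of Rpl39 0.50 and 0.65, and that of Rplp0 0.47 and 0.39. Rps27 lost ground, from 4.07 ± 0.269 to 3.30 ± 0.124 in MF and from 4.45 ± 0.196 to 2.66 ± 0.0689 in MyoF, changes of -0.31 and -0.70. Rpl22 (-0.37 and -0.41) and Rps2 (-0.32 and -0.30) also fell relative to the family, by similar amounts in both subgroups. Over the 4 group means Rpl12 had the largest coefficient of variation of the tested members, 56.3%, and Rps27 the smallest, 13.2%.

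**Figure D4:**
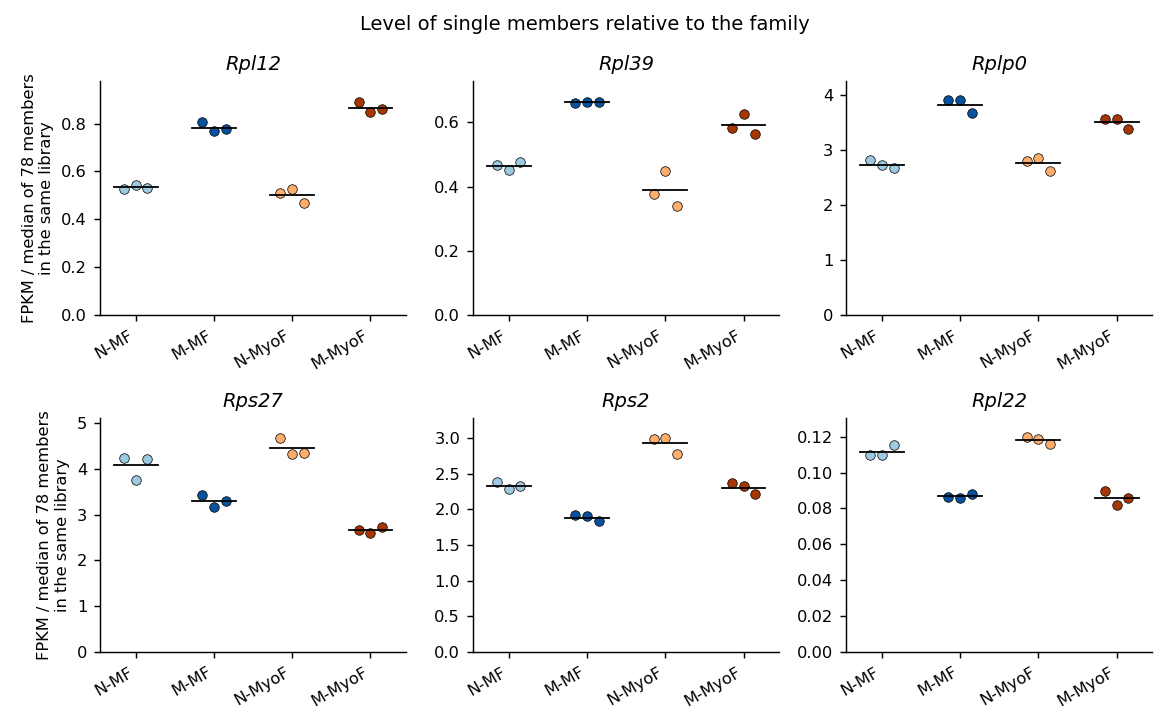
Level of 6 ribosomal protein genes in each of the 12 libraries as a ratio to the median of the 78 tested members of that library, with group means as lines and axes from 0. The upper 3 genes stand higher in M-MF and M-MyoF than in their normal groups, and the lower 3 stand lower, with no overlap. The genes were picked as the 3 highest and 3 lowest changes in MF, so their side in MF follows from that choice.

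Genes that form one structure of the ribosome did not all change alike. Rpl5 and Rpl11 bind the 5S RNA and, when free, the p53 inhibitor Mdm2. Rpl5 had 160.4, 159 and 162 FPKM in the N-MF libraries and 282, 283 and 285 FPKM in the M-MF libraries, a change of 0.82, and Rpl11 had 169.7, 179 and 184 FPKM in the N-MF libraries and 248, 261 and 257 FPKM in the M-MF libraries, a change of 0.52. In MyoF the changes were 1.26 and 1.060, from 139, 149.8 and 147 FPKM in the N-MyoF libraries and 345, 347 and 355 FPKM in the M-MyoF libraries for Rpl5 and 144, 149 and 145 FPKM in the N-MyoF libraries and 294, 309.7 and 313 FPKM in the M-MyoF libraries for Rpl11. Relative to the family, Rpl5 was above it in both subgroups (0.15 and 0.32) and Rpl11 was below it in MF (-0.14) and above it in MyoF (0.12).

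Of the stalk, which recruits elongation factors, Rplp2 changed by 0.88 in MF and 1.16 in MyoF and its partner Rplp1 by 0.53 and 1.12, while Rplp0 and Rpl12 had among the largest changes of the family. Rplp1 was the more abundant partner, at 744 ± 19.8 FPKM in N-MF against 185 ± 7.24 for Rplp2 (SD, n = 3). Around the exit tunnel, Rpl39 had the largest change, Rpl17 changed by 0.86 and 1.08, Rpl4 by 0.52 and 0.80 and Rpl31 by 0.50 and 1.08. Rpl4 was the most tightly measured of these, with SE 0.0125. Under quantile normalization Rpl31 did not pass in MF (0.24, adjusted p = 0.115).

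Near the decoding site and the messenger RNA channel, Rps2 and Rps23 were at the low end in MF (0.34 and 0.38) and at 0.64 and 0.75 in MyoF. Rpsa, the laminin receptor precursor, changed by 0.86 (SE 0.0157) and 1.29 (SE 0.0157), above the family in both. Rps6, the substrate of S6 kinase, had 9.91, 8.25 and 10.1 FPKM in the N-MF libraries and 14.3, 14.9 and 13.9 FPKM in the M-MF libraries, and 10.7, 10.8 and 11.3 FPKM in the N-MyoF libraries and 16.99, 17.02 and 17.6 FPKM in the M-MyoF libraries, low for a ribosomal protein, with changes of 0.57 and 0.60. Rps27a, made as a fusion with ubiquitin, changed by 0.70 and 1.03 (0.04 and 0.09 relative to the family). On the X chromosome, Rpl39 and Rpl36a (0.83 and 1.28) were above the family in both subgroups, and Rps4x (0.55 and 1.01) and Rpl10 (0.53 and 0.9999) were below the family in MF.

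Paralogues are second genes for the same ribosomal protein. Rps27 and Rps27l are shown because their shares shifted between groups. Their coding sequences, from GENCODE M21 transcripts (GRCm38), are 255 bases each and differ at 61 bases (76.1% identity), marked in capitals.
Rps27: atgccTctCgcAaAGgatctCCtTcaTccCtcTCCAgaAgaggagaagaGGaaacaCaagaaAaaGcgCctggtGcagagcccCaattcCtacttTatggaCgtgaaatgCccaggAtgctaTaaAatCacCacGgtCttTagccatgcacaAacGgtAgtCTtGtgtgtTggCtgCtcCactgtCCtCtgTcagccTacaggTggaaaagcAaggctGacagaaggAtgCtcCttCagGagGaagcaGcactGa
Rps27l: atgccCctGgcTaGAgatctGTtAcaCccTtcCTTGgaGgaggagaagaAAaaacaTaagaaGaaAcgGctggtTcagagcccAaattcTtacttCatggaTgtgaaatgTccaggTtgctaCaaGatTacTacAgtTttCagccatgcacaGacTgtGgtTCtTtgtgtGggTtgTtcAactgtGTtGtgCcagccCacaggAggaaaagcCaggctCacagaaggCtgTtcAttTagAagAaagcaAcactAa
Rps27l, known as a target of p53, had 126, 118 and 133 FPKM in the N-MF libraries and 199, 218 and 235 FPKM in the M-MF libraries, and 104, 101 and 111 FPKM in the N-MyoF libraries and 215, 218 and 246 FPKM in the M-MyoF libraries. It changed by 0.78 (SE 0.0662) in MF and 1.09 (SE 0.0662) in MyoF, against 0.35 and 0.25 for Rps27. The ratio of Rps27l to Rps27 was 0.120 ± 0.00315 in N-MF, 0.163 ± 0.0158 in M-MF, 0.106 ± 0.00578 in N-MyoF and 0.191 ± 0.0101 in M-MyoF (SD, n = 3). Rps27l stayed the minor gene of the pair in every group. Rpl22l1, a paralogue of Rpl22 that the naming pattern leaves out, was the major gene of its pair. Its ratio to Rpl22 was 7.36 ± 0.401 in N-MF and 7.92 ± 0.453 in M-MF, with overlap between libraries. In N-MyoF the ratio was 5.81 ± 0.112 and in M-MyoF it was lower, at 4.76 ± 0.230 (SD, n = 3).

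The 3 members that failed the filter are all paralogues. Rpl3l, known from heart and skeletal muscle, was between 0 and 0.09 FPKM in the MF libraries, at 0.950, 0.880 and 0.410 FPKM in N-MyoF and at 0.620, 1.02 and 0.980 FPKM in M-MyoF. Rpl10l and Rpl39l, known from the testis, were at 0.06 FPKM or less and 0.25 FPKM or less in all libraries. Rpl39l is listed at or near 0 while Rpl39, with which it shares 133 of 156 coding bases, was abundant, and both are printed with their 23 differences in capitals.
Rpl39: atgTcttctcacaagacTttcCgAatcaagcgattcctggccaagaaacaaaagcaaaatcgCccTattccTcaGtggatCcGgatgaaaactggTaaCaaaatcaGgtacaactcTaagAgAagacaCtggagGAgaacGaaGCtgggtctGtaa
Rpl39l: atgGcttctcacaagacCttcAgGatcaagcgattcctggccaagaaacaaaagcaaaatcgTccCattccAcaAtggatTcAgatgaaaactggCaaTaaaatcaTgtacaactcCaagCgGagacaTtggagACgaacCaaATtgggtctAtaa
Rpl32l, at a mean of 2.41 FPKM, was the lowest of the tested members, followed by Rps6 (12.99), Rps15a (15.1), Rpl22 (32.2) and Rps20 (35.7).

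Ribosomal protein genes have many processed pseudogenes, so reads can be shared between copies, and the sources used here do not say how the authors assigned such reads. At 95% identity over at least 80% of the coding sequence, 74 of 80 matched members had at least 1 near copy among the GENCODE M21 transcripts, with a median of 6 among tested members and 57 for Rpl21. Levels and changes of single members are uncertain to that extent. Over 77 members the number of near copies had a Spearman correlation of -0.07 with the mean level, -0.17 with the change in MF and 0.02 in MyoF. The coding length, 78 to 1260 bases, had correlations of -0.08 and -0.16 with the changes in MF and MyoF, and the mean level -0.15 and -0.18. These points share the same 12 libraries.

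A few members differed by library number, in the same way in every group. Rpl30 was higher in library 3 than in the mean of libraries 1 and 2 by 0.46 to 0.55 on the log2 scale in each of the 4 groups, 1.42-fold on average, and Rpl23 by 0.38 to 0.60, 1.41-fold. In N-MF, Rpl23 had 30.9, 31.3 and 47.6 FPKM, and in M-MF 53.8, 54.9 and 77.9. Only 2 of 78 members, these, were above 0.25 in all 4 groups, and 21 of 13300 genes were. Rpl31 was next, at 0.28 on average, from 69.6, 74.6 and 83.03 FPKM in N-MF to 105, 116 and 130.3 in M-MyoF. Rpl30 (Entrez Gene 19946, chr15:34440505-34443276), Rpl23 and Rpl31 accordingly had the widest errors of the family. Without the libraries numbered 3, 78 members were higher in MF, 78 in MyoF, and 63 were smaller in MF in the difference. Of all genes, 44.1% were higher in MF, 47.2% in MyoF and 33.25% smaller in the difference.

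**Figure D5:**
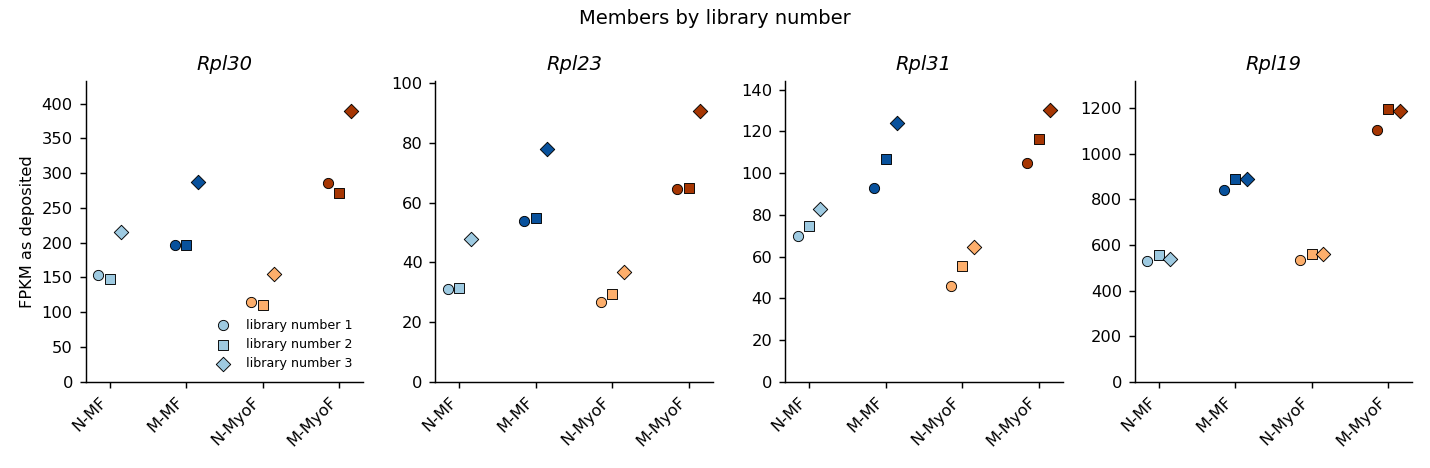
FPKM as deposited of Rpl30, Rpl23, Rpl31 and, for comparison, Rpl19 in each library, with circles, squares and diamonds for the libraries numbered 1, 2 and 3 and axes from 0. The diamond is the highest of its group for Rpl30, Rpl23 and Rpl31 in all 4 groups, and not for Rpl19.

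The genes that build ribosomes and feed them were also mostly higher with metastasis. Of 46 ribosome biogenesis genes, 41 were higher and 2 lower in MF and 43 higher and 3 lower in MyoF, with medians of 0.60 and 0.85. Examples were Npm1, a nucleolar chaperone of ribosomal proteins (1.29 and 1.62 in MF and MyoF), and Nhp2, of the pseudouridylation particles (1.55 and 2.03). Nop58, a core protein of the methylation particles, went the other way: it fell by 0.71 and 1.35 on the log2 scale, from 325 ± 1.10 to 127 ± 1.29 FPKM in MyoF (SD, n = 3). Of 12 genes of RNA polymerase I, which transcribes ribosomal RNA, 10 and 11 were higher and 1 lower in each subgroup, with Rrn3 at 0.42 and 0.28 and Polr1a at 0.62 and 0.84. Between the subgroups of mice with metastasis, 45 of the biogenesis genes and 12 of the polymerase genes were lower in M-MF as deposited, where 66% of all genes were lower and their median was -0.29.

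Of 8 ribosomal proteins and partners that the naming pattern leaves out, 7 were higher and 0 lower in each subgroup, including Rack1, a scaffold on the small subunit (1.18 and 1.40), and Rps3a1 (0.79 and 0.90). Of 14 other TOP messenger RNAs, 13 were higher and 1 lower in MF and 14 higher in MyoF. All 9 elongation and termination genes were higher in both, such as Eif5a (0.98 and 1.07), Eef1g (0.87 and 1.15) and Eef1b2 (1.07 and 1.23). Of 30 initiation genes, 22 were higher and 4 lower in MF and 23 and 5 in MyoF, led by the poly(A)-binding Pabpc1 (1.29 and 1.19). Of 7 factors that meet the nascent chain, 6 were higher and 0 lower in each, such as Naca (0.59 and 0.81) and Btf3 (0.74 and 0.70). These shares stand beside 46.3% of all genes higher in MF and 49.1% in MyoF.

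Of 16 genes that control ribosome synthesis, 10 were higher and 4 lower in MF and 8 higher and 3 lower in MyoF. Of all genes, 46.3% were higher and 31.8% lower in MF and 49.1% higher and 31.6% lower in MyoF, so the counts in MyoF lay near this background. The medians were 0.15 and 0.19, against 0.08 and 0.11 for all genes. Eif4ebp1, which encodes an mTOR-regulated repressor of cap-dependent translation, had the largest change, 1.89 (SE 0.0388) and 2.32 (SE 0.0388), from 40.7 ± 1.52 to 207 ± 5.99 FPKM in MyoF (SD, n = 3). Deptor, an mTOR inhibitor, was higher by 0.37 and 0.82. Mycn fell by 1.53 and 1.17 on the log2 scale. Myc, a transcription factor known to drive ribosomal protein genes, was 204 ± 1.23 FPKM in N-MF and 224 ± 2.48 in M-MF, a change of 0.13. In MyoF it fell by 0.73, from 542 ± 7.39 to 327 ± 5.93 FPKM. The part of Myc in the ribosomal protein changes was not tested.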

How the data were processed

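Polyadenylated RNA of 12 mouse lung fibroblast samples was measured by bulk sequencing. Per the labels' protocols, Trizol served for extraction, the SMART-seq2 method for first-strand cDNA, PCR for preamplification and a transposon for library construction, so copies made by PCR cannot be told from separate molecules. The deposited values are FPKM, computed by the authors per the file headers and rounded to 2 decimals. The build was GRCm38 per the submitters' processing notes. Neither the aligner nor the counting tool nor the annotation was given in the sources used here. Without a known depth, precision rests on how far the 3 libraries within each group vary.

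Groups were taken from the sample titles. A model of the 4 group means with 5 contrasts was fitted by limma 3.58.1 (R 4.3.3, mean-variance trend) to log2(FPKM + 1) of 13300 genes that reached 1 FPKM in 3 or more libraries. Benjamini-Hochberg adjustment ran over these genes, with a threshold of 0.05. The pseudocount makes fold changes of low genes look smaller than they are. The fit was tested on simulated data. No list was tested as a whole. The library numbers were checked over 1830 genes at 50 FPKM or more: deviations from the group means had correlations of 0.482 to 0.796 in the 18 pairs with the same number and of -0.683 to 0.380 in the 36 other pairs, and the best match of 12 of 12 libraries carried their own number. The main fit has no term for the library numbers, so its errors, p-values and counts leave this pairing out. A fit with the numbers as a block was run as an alternative, and its values stand beside some results it changes.

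The members and lists were chosen with earlier results of these data known. Named members are the 3 highest and 3 lowest per contrast, those that passed against the family's direction, the 5 most abundant, those of the role groups, those that failed the filter and the ones with the largest and smallest variation over groups. From each related list up to 3 tested genes with the smallest p were named, and a gene that this rule also names is not reported here. Rpl22l1, Rpl23, Rpl28 and Rpl32l were named after their values were seen. Start regions and gene positions come from RefSeq tables (81 members matched by gene number), and coding sequences and near copies from GENCODE M21 with blastn 2.17.0. Tables and figures used Python 3.11.15, pandas 2.3.3, numpy 2.4.6, scipy 1.17.1 and matplotlib 3.10.9. Alternatives covered pseudocounts of 0.1 and 5, the filter, 4 scalings, a fit on the compared groups only, the block, a 1.5-fold threshold and each library left out in turn. The comparison relative to the members' median and leaving out the libraries numbered 3 were added after the data were seen.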

Additional observations from a re-analysis of the deposited data

Results flagged for a closer look

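The change with metastasis differed between the subgroups by the test of the difference itself for 63 of 78 tested ribosomal protein genes, each with a smaller rise in MF than in MyoF. Of all 13300 genes tested, 38% passed as smaller in MF and 26.4% as larger. By size the difference (MF minus MyoF, log2) was led by Rpl30 at -0.92 (SE 0.277), Rplp1 at -0.60 (SE 0.0341) and Rpl31 at -0.58 (SE 0.180). Rpl30 and Rpl31 are also among the members that varied with the library number. With that number as a block, the difference was -0.92 for Rpl30 (SE 0.029, limma adjusted p = 6.78e-10). For Rpl31 it was -0.58 (SE 0.053, adjusted p = 3.05e-06).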

How the results depend on the processing

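Leaving out each library in turn, the members higher ranged from 77 to 78 in MF and stayed at 78 in MyoF. The members smaller in MF than in MyoF ranged from 62 to 68 and those larger from 0 to 1, the latter reached without N-MF library 3, M-MF library 2 or N-MyoF library 2. The medians ranged from 0.63 to 0.66 in MF, 0.95 to 0.98 in MyoF, -0.30 to -0.27 for the difference, 0.15 to 0.18 for N-MF against N-MyoF and -0.14 to -0.12 for M-MF against M-MyoF. Pseudocounts of 0.1 and 5 and a filter of 5 FPKM moved no count by over 1.5 times. With no filter 1 member that the filter had removed was lower in MF.

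Rescaling moved the medians by more than the library spread. In the order of equal sums, equal sums of the other genes, median-ratio scaling and quantile normalization, they were 0.53, 0.57, 0.51 and 0.41 in MF and 0.77, 0.82, 0.80 and 0.73 in MyoF. For the difference they were -0.20, -0.21 and -0.26 (median-ratio), with 2, 2 and, after quantile normalization, 3 members larger in MF. Of all genes, 31.8%, 31.7% and, after quantile normalization, 29.8% were larger in MF. For N-MF against N-MyoF, equal sums of the other genes gave 2 members lower and a median of 0.20, where 55.6% of all genes were lower. Median-ratio scaling gave 77 higher, 0 lower and 0.46, where 43.3% of all genes were higher and 37.2% lower. Rps6 then stood at 0.066 (adjusted p = 0.306), and at 0.012 after quantile normalization (adjusted p = 0.861), Rps2 at 0.17, Rpl18 at 0.19 and Rps14 at 0.23, all lower in N-MF as deposited. For M-MF against M-MyoF, equal sums gave 21 members higher and a median of -0.027, equal sums of the other genes 21 and -0.026, quantile normalization 14 higher, and median-ratio scaling reversed the median to 0.19 with 58 higher and 2 lower. Of all genes, 23.1%, 23.6%, 35.7% and 37.9% were higher in the same order. The members' share under both equal-sum scalings lay near that of all genes. The cause of the shifts with scaling was not tested.

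With the library number as a block (replicate block), 2 members were larger in MF in the difference and 7 were lower in N-MF than in N-MyoF. Of all genes, 27.3% were larger in the difference and 58.3% lower in N-MF. No other count was moved over 1.5 times by the block. At 1.5-fold or more, 45 members were higher in MF, 2 were smaller in the difference, 2 were higher and 0 lower in N-MF against N-MyoF, and 0 and 0 in M-MF against M-MyoF. Of all genes, 18.8% were higher in MF and 9.14% smaller in the difference. In N-MF against N-MyoF 8.62% of all genes were higher and 23.6% lower, and in M-MF against M-MyoF 8.32% and 23.45%. A fit on the compared groups only gives no value for the difference, which needs all 4. For single members, 1902 values kept their side of the threshold, 68 lost it, 11 gained it and 5 reversed. Since the depth is unknown, no floor can be given for the members listed near 0.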
